A study of Mus musculus with 2 samples.

Results

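The Zfp genes are mouse genes named for a zinc finger protein, and those studied here carry a symbol of Zfp followed by digits alone. Of 305 such genes with at least 1 probe set paired with no other gene, 268 had such a probe set called present on at least 1 array and make up the set described, out of 12859 detected genes. The remaining 37 were not called present on either array. Of the 268, 240 were present on both arrays, 14 on the wild-type array alone and 14 on the Drd2-/- array alone. The members were chosen by the deposited detection calls, so detection itself is not a result. A gene that entered through 1 array alone was picked by a call that favours that array, and its ratio was not allowed to point the other way. Its signals could do so, as for Zfp652 (wild type alone, 154.7 units against 240.7 in Drd2-/-) and Zfp395 (Drd2-/- alone, 81.7 units in wild type against 66.6).

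Striatal RNA was measured on Affymetrix expression arrays, 1 array for wild-type mice and 1 for mice lacking the dopamine D2 receptor gene (Drd2-/-), both of the C57BL/6 strain, male, 2 months old and untreated. The tissue was dissected by hand, and how many animals each array represents and how the Drd2-/- allele was made are not given in the sources used here. With 1 array per genotype there is no replicate error, no test and no p-value for any difference, and genes were counted by size at 1.5-fold and 2-fold. The single probe set of Drd2 read 3234.8 signal units in wild type and 27.4 in Drd2-/-, where it was not called present. Every direction given here follows the labels of the samples. In the deposited comparison table the column headings name the genotypes the other way round for these very signals, and by those headings each sign would be turned. By those headings Drd2 would read 3234.8 units in the mice lacking it and 27.4 in wild type, so the Drd2 signals go with the labels.

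Most Zfp genes encode proteins with tandem C2H2 zinc fingers, each folded around a zinc ion and reading a few bases of DNA. Many carry a KRAB domain, which recruits the corepressor Trim28 and with it the histone methyltransferase Setdb1 and heterochromatin proteins, and this machinery is known for silencing transposable elements and for keeping imprinted genes imprinted. Such genes lie in tandem clusters that have grown by duplication, and neighbours can be close copies. Some members have other roles, in RNA decay, translation or ubiquitin transfer. A signal in tissue RNA cannot tell fewer cells of a type from less RNA per cell.

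Promoter sequence shows how alike clustered members can be. RefSeq windows on GRCm38.p6, from 250 bases before to 50 bases after a gene's start, were matched to 220 of the 268 members. Between the windows of 7 pairs of members an exact run of at least 30 bases was shared on either strand, and 6 of these pairs were formed by Zfp942, Zfp943, Zfp944 and Zfp758 of chromosome 17. In 2 of the 6 the windows overlap, so that their shared run is the same stretch of DNA. Zfp942 (minus strand) and Zfp943 (plus strand) start back to back, as do Zfp944 (minus strand) and Zfp758 (plus strand), and the window of Zfp943 shares 248 bases with that of Zfp758 and the window of Zfp942 shares 207 bases with that of Zfp944. The 60 bases before each start are printed because these 4 genes read higher together, with Zfp946 from the same cluster beside them. Zfp932 and Zfp950, the highest of the brighter members, and Zfp207, which differed little by its brightest probe set, follow for comparison. Capitals mark CACGTG, the E-box core, and CCAAT, the CCAAT box, on either strand, and each line runs 5′ to 3′ toward the gene's start. The windows are chr17:21962465-21962524 (minus) for Zfp942, chr17:21962499-21962558 (plus) for Zfp943, chr17:22361401-22361460 (minus) for Zfp944, chr17:22361403-22361462 (plus) for Zfp758 and chr17:22424142-22424201 (plus) for Zfp946. The others are chr5:109996450-109996509 (plus) for Zfp932, chr19:61140841-61140900 (minus) for Zfp950 and chr11:80383219-80383278 (plus) for Zfp207.
Zfp942: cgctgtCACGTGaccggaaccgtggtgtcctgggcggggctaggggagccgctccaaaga
Zfp943: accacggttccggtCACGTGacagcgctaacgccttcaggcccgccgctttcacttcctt
Zfp944: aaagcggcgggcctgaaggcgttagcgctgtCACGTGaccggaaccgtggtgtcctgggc
Zfp758: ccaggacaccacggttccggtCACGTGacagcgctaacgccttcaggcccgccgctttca
Zfp946: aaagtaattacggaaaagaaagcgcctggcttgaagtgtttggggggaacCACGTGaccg
Zfp932: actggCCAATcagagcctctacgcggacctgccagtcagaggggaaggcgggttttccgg
Zfp950: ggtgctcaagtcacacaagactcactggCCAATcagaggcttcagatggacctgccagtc
Zfp207: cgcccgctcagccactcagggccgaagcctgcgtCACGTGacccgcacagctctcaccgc

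Zfp genes leaned higher in the Drd2-/- array. Of the 268 members, 76 were at least 1.5-fold higher there (28.4%) and 3 at least 1.5-fold lower (1.12%), against 9.44% and 3.55% of all 12859 detected genes. At 2-fold, 39 were higher (14.6%; 3.34% of all detected genes) and 0 lower (0.848% of all). The median log2 ratio of Drd2-/- over wild type was 0.17, with quartiles of -0.07 and 0.66, while the median of the other 12591 detected genes was -0.06. Under quantile normalization the Zfp median was 0.0316 and that of the other genes -0.10, with 56 members at least 1.5-fold higher and 8 lower. Zfp genes were 2.08% of the detected genes and 9.07% of the 430 genes at least 2-fold higher, and 20 of the 100 highest ratios were theirs. The 430 and the 100 include genes present in Drd2-/- alone, whose ratios are bounds, and take no account of signal level. Among the 240 members present on both arrays, 66 were at least 1.5-fold higher and 2 as much lower, against 8.14% and 2.61% of all 11641 genes present on both. At 2-fold, 32 of the 240 were higher (13.3%) and 0 lower, against 2.06% and 0.368% of the 11401 other genes present on both. With every Zfp gene counted, detected or not, 92 of 305 were at least 1.5-fold higher and 11 as much lower, against 18.1% and 8.43% of all 18193 genes without a detection filter.

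The authors' deposited table held its own log ratios and change calls, which were turned to match the labels. It called 65 members increased and 3 decreased (24.3% and 1.12%, against 8.66% and 5.55% of all detected genes), and its median log ratio over the members was 0.2. Of the 76 members at least 1.5-fold higher by signal, 53 carried its increased call. Its lower limit lay above 0 for 91 members (34%, against 13.3% of all detected genes), and its upper limit lay below 0 for 11 (4.1%, against 22.3%). Those limits come from the probes within a set on 2 arrays and say nothing of animals.

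**Figure D1:**
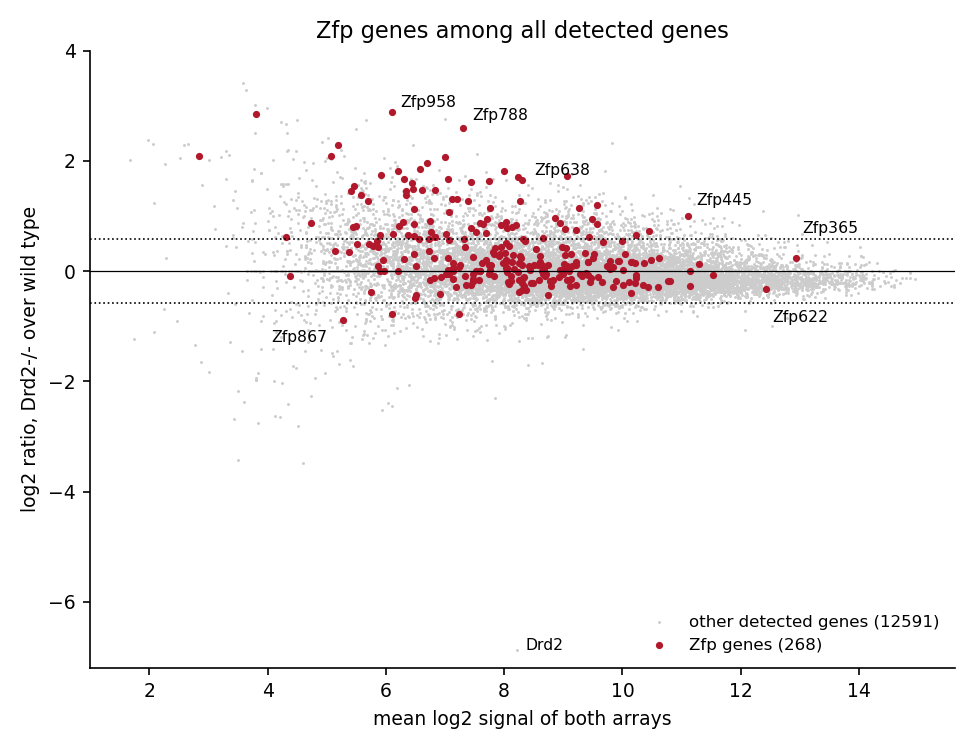
Log2 ratio of Drd2-/- over wild type (y axis) against the mean log2 signal of both arrays (x axis) for 268 Zfp genes (red) and 12591 other detected genes (grey), 1 point per gene, with dotted lines at 1.5-fold. Red points lie mostly in the left and middle of the signal range and above 0 more often than below, 179 of 268 being above.

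Zfp transcripts are scarce, so signal level was taken into account. Members had a median signal of 236.7 units (wild type) and 291.8 units (Drd2-/-), against 610.8 and 599.3 units in other detected genes. In the dimmest of 4 equal groups of detected genes, the median log2 ratio was 0.56 over 109 Zfp genes and 0.06 over 3106 others. It was 0.11 over 99 Zfp genes and -0.04 over others in the next group, and 0.14 over 49 and -0.10 in the third. In the brightest group 11 Zfp genes had a median of -0.08 and the others -0.14. The share at least 1.5-fold higher was 46.8% of Zfp genes against 20.3% of others in the dimmest group, 16.2% against 7.96% in the next and 16.3% against 5.81% in the third. Across 20 equal bins of mean log2 signal, the Zfp median lay above that of other genes by a weighted mean of 0.25 on the log2 scale.

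**Figure D2:**
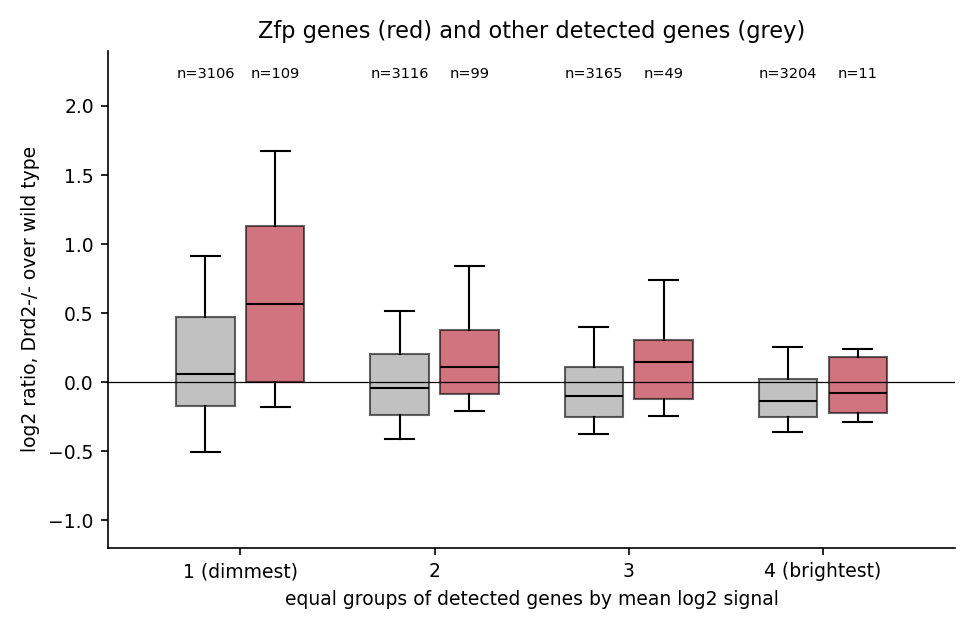
Log2 ratios of Zfp genes (red) and other detected genes (grey) in 4 equal groups of detected genes by mean log2 signal, with the median, quartile box and whiskers to the 10th and 90th percentiles. The Zfp median is higher in each group, by most in the dimmest (0.56 against 0.06) and by least in the brightest (-0.08 against -0.14).

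The position of the members set some apart. On 18 of 20 chromosomes the Zfp median lay above the median of the other detected genes of that chromosome, but the size differed widely. Chromosome 17 held 35 members with a median log2 ratio of 0.78, and 23 of them (65.7%) were at least 1.5-fold higher, while 5.88% of its 527 other genes were. Chromosome 13 held 18 members with a median of 0.65, of which 10 were at least 1.5-fold higher. These counts include members present in Drd2-/- alone, whose ratios could not fall below 0. They were Zfp40, Zfp53, Zfp101, Zfp677, Zfp959, Zfp994 and Zfp995 on chromosome 17 and Zfp748 on chromosome 13. Chromosome 7 held the most members, 71, with a median of 0.09 and 13 at least 1.5-fold higher (18.3%). On chromosomes 6, 11 and 15 the medians were -0.06 over 17 members, 0.00 over 13 and -0.11 over 7. Chromosome 17 and 13 members were dim, with median mean log2 signals of 7.05 and 6.82, and against other genes of like signal they lay 0.73 and 0.60 higher, compared with 0.16 for chromosome 7. Differences of like size stood on chromosomes with fewer members, at 0.90 on chromosome 19 (2 members), 0.73 on chromosome 10 (3), 0.61 on chromosome 16 (4), 0.54 on chromosome 4 (10), 0.51 on chromosome 12 (4) and 0.46 on chromosome 5, where 6 of 13 members were at least 1.5-fold higher (46.2%). Without the members of chromosomes 13 and 17, 43 of 215 were at least 1.5-fold higher (20%).

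**Figure D3:**
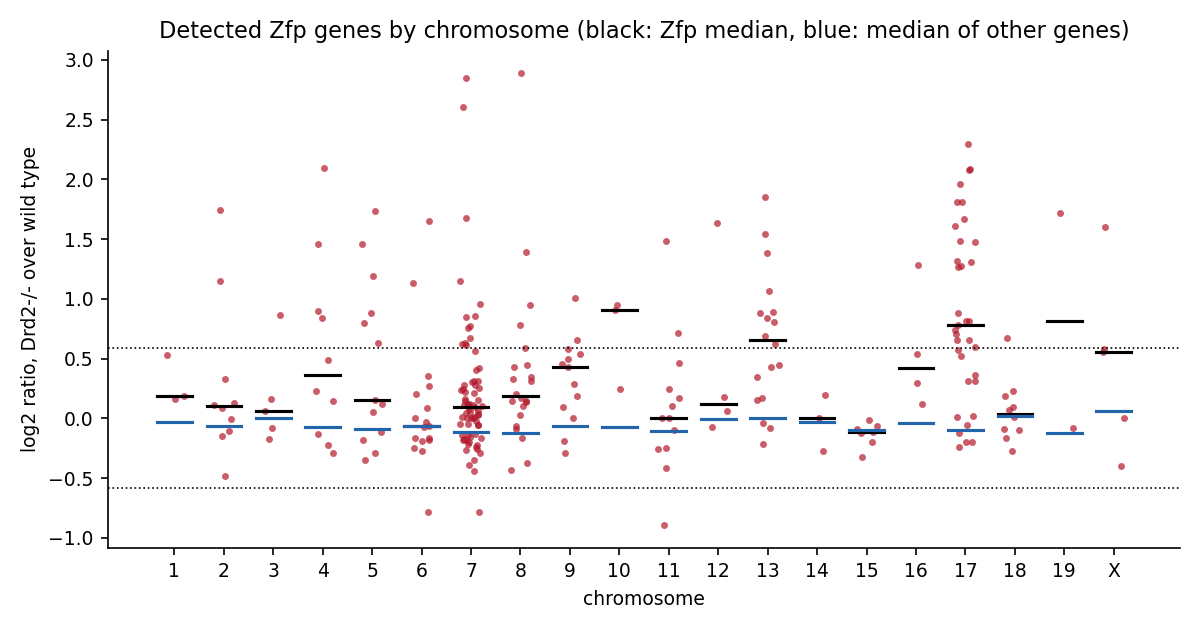
Log2 ratio of each detected Zfp gene by chromosome (red points, spread sideways for legibility), with the Zfp median (black bar), the median of the other detected genes of that chromosome (blue bar) and dotted lines at 1.5-fold. Chromosomes 17 and 13 hold most of their members above the upper line (23 of 35 and 10 of 18), while the 71 members of chromosome 7 centre near 0.09. Members present on 1 array alone are included and could not point away from that array.

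The largest cluster lay on chromosome 17, from Zfp160 to Zfp13 in RefSeq gene order, with at most 5 other protein-coding genes between neighbouring members. Of its 23 Zfp genes 20 were detected, and 17 of these were at least 1.5-fold and 12 at least 2-fold higher in Drd2-/-. Their median log2 ratio was 1.29. Signals of the 20 ran from 16.3 to 504.6 units in wild type, with a median of 64.4, and from 36.2 to 626.2 units in Drd2-/-, with a median of 156.6. Among the 15 members present on both arrays 12 were at least 1.5-fold higher, and the authors' deposited table, turned to the labels, called 12 of the 20 increased. Their levels thus lay low on both arrays and higher on the Drd2-/- array for most. Zfp160 at the start of the cluster read 62.7 units in wild type and 263.9 in Drd2-/- (log2 ratio 2.07), though its second probe set gave 0.44. Zfp51 followed with 16.3 and 69.2 units (2.09), Zfp52 with 33.5 and 81.1 (1.28) and Zfp948 with 58.2 and 162.5 (1.48). Of the back-to-back genes whose promoters are shown above, Zfp942 read 39.4 and 138.2 units (1.81), Zfp943 137.2 and 481.2 (1.81), Zfp758 74.5 and 236.9 (1.67) and Zfp944 66.0 and 103.9 (0.65). The second probe set of Zfp942, present in Drd2-/- alone, gave 2.29. That of Zfp943 gave -0.11, and those of Zfp944 gave 1.18 and -0.42, so the ratios of these genes depend on the probe set. A probe set paired with both Zfp944 and Zfp942, and so left out of all counts, read 147.2 and 184.1 units (0.32).

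Zfp946 read 52.5 and 204.4 units (1.96), and Zfp40, present in Drd2-/- alone by its brightest probe set, 199.6 and 480.8 units (1.27). Between these genes Zfp983 read 93.7 and 232.4 units (1.31) and Zfp760 68.6 and 190.3 (1.47), while Zfp229 read 19.7 and 36.2 (0.88). Zfp53, present in Drd2-/- alone by its brightest probe set, read 84.7 and 137.9 units (a bound of 0.70; 1.39 by its second probe set). The 3 other detected probe sets of Zfp40 gave 1.61 (present on both arrays) and bounds of 2.39 and 3.52. Those with bounds were present in Drd2-/- alone and could not read below 0. Not every gene of the cluster differed: Zfp945, the brightest, read 504.6 and 626.2 units (0.31; 0.96 by its second probe set), and Zfp213 and Zfp13 at the far end read -0.05 and -0.24, with -0.65 by the second probe set of Zfp213. In all, 10 of the 20 had a second detected probe set, and it was above 0 for 8. Those of Zfp942 and Zfp995 were present in Drd2-/- alone and could not read below 0. Whether copies in the cluster share probe signal was not tested. Outside the cluster but on the same chromosome, Zfp101 read 99.2 and 303.2 units (1.61) and Zfp959 87.7 and 217.8 (1.31), both present in Drd2-/- alone. A second chromosome 17 cluster, from Zfp871 to Zfp563, had 8 detected members and a median of 0.55, with Zfp871, its brightest, at 1079.7 and 1799.4 units (0.74; 0.79 and 0.92 by its other probe sets).

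**Figure D4:**
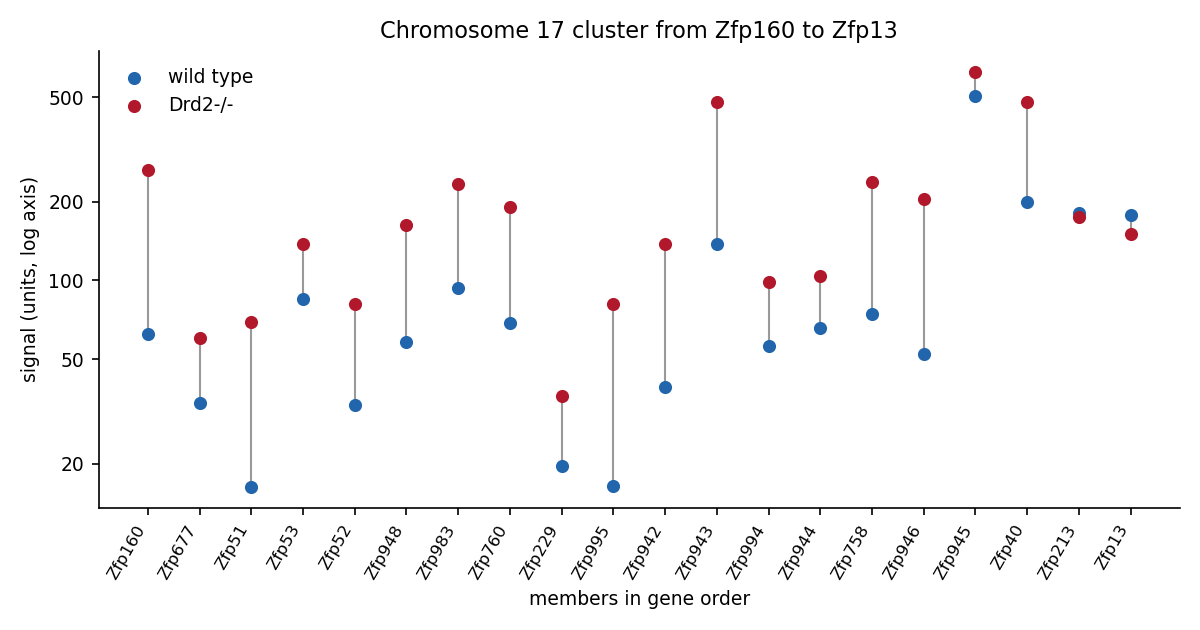
Signal (log axis, units) of the 20 detected members of the chromosome 17 cluster in gene order, wild type in blue and Drd2-/- in red, joined by a line, 1 array each. Red lies above blue for 18 of 20 members, and Zfp213 and Zfp13 at the right end are the exceptions.

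Other clusters differed from this pattern. On chromosome 13, 6 of 10 detected members between Zfp640 and Zfp273 were at least 1.5-fold higher, among them Zfp748 at 49.9 and 180.5 units (1.85, present in Drd2-/- alone) and Zfp759 at 50.3 and 131.5 (1.39), and the authors' deposited table called 2 of the 10 increased. Elsewhere on that chromosome Zfp935 read 25.7 and 74.7 units (1.54) beside its neighbour Zfp934 at 93.0 and 194.5 (1.06). On chromosome 6 none of 8 members from Zfp786 to Zfp467 was 1.5-fold apart, with a median of -0.04 and a range of -0.27 to 0.27. On chromosome 7 the 11 detected members from Zfp84 to Zfp146 had a median of 0.11, with 1 at least 1.5-fold higher, and the 9 from Zfp180 to Zfp94 a median of -0.04, with none higher and Zfp108 lower. Members next to another Zfp gene in gene order had a median of 0.24 (139 members) and the others 0.12 (127 members). The order was turned in the dimmest signal group, with medians of 0.47 and 0.62, and the medians were 0.12 and 0.10 in the next group. Of 77 pairs of neighbouring detected members, both were at least 1.5-fold higher in 12, of which 11 lay on chromosome 17, and 1 of the pair was in 19.

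Among the brighter members the highest ratios came from Zfp932, a KRAB protein known for silencing endogenous retroviruses in mouse embryonic stem cells, at 291.9 units against 968.6 units in Drd2-/- (log2 ratio 1.73; 1.5 in the authors' deposited table). Zfp950 read 165.4 and 542.6 units (1.71; 1.24 by its second probe set). Zfp638, which encodes a large nuclear RNA- and DNA-binding protein, read 178.6 and 561.3 units (1.65), and its other probe sets gave 1.75, 0.64 and -0.36. Zfp644, a partner of the histone methyltransferases G9a and GLP, read 504.7 and 1154.3 units (1.19), with all 3 other probe sets between 0.69 and 1.45. Zfp445, which helps maintain genomic imprints, was the brightest of those 2-fold apart at 1549.3 and 3114.8 units (1.01), and its other probe sets gave 1.06 and 0.88. Zfp931 read 412.0 and 914.7 units (1.15) by a probe set that can match other transcripts. Zfp329 read 333.2 and 647.6 units (0.96) and Zfp617 515.9 and 994.9 (0.95). The authors' deposited table, turned to the labels, called all 8 of these members increased, and of the 6 with a further probe set only Zfp638 had one below 0.

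Lower ratios in this range were small. The lowest of the brighter members, Zfp821, read 496.6 and 367.3 units (-0.44), followed by Zfp275 (-0.39), Zfp61 (-0.39), Zfp628 (-0.35) and Zfp11 (-0.34), and the authors' deposited table called all of these unchanged, with Zfp11 at 0.1. Zfp622, which acts in the maturation of the large ribosomal subunit, read 6188.8 and 4958.6 units (-0.32) and was called decreased in that table (-0.3, limits of -0.4 and -0.2), while its other probe sets gave -0.27, 0.01 and -0.23. Zfp512 read -0.29 and Zfp46 -0.29. None of these 8 members was 1.5-fold lower.

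Dimmer members gave the extremes. Zfp958 read 25.2 units in the wild-type array and 186.3 in the Drd2-/- array (2.89), but the authors' deposited table gave 1.5 with limits of 0.5 and 2.5, so its size is not firm. Zfp788 read 64.5 and 391.2 units (2.60; 4.27 by a second probe set present in Drd2-/- alone; 1.3 in the authors' deposited table). Of members present in Drd2-/- alone, Zfp975 read 5.2 and 37.5 units (at least 7.21-fold higher), Zfp995 16.5 and 81.0 (at least 4.91-fold) and Zfp982 2.4 and 21.3 (at least 4.26-fold). The wild-type signals of all 3 were at most 16.5 units, and that table called Zfp995 increased and the other two unchanged. On the low side Zfp867 read 52.6 and 28.3 units (-0.89), Zfp775 197.3 and 114.6 (-0.78) and Zfp658 106.2 and 78.4 (-0.44), and none was called decreased there. Among members present in wild type alone, the bounds were -0.78 for Zfp108 (90.3 and 52.5 units), -0.48 for Zfp408 (106.3 and 76.1 units) and -0.38 for Zfp423 (61.3 and 47.2 units). Zfp867, Zfp775 and Zfp108 were thus the 3 members at least 1.5-fold lower.

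Most of the brightest Zfp genes differed little. Zfp365, whose protein binds the schizophrenia-associated scaffold Disc1, had the highest signal, 7209.1 units against 8529.7 in Drd2-/- (0.24), and its second probe set gave 0.02. Zfp91, a ubiquitin ligase, read 3043.7 and 2882.2 units (-0.08), with 0.02 and 1.76 by its other probe sets. Zfp106, an RNA-binding protein needed by motor neurons in mice, read 2405.6 and 2627.9 units (0.13), and Zfp771 2461.2 and 2051.4 (-0.26; second probe set -0.51). Zfp771 was called decreased in the authors' deposited table (-0.3, limits of -0.4 and -0.2). Zfp207, a spindle assembly and splicing factor, read 2255.9 and 2259.6 units (0.00) by its brightest probe set, but its 5 other probe sets gave 0.26 to 1.12 and the authors' deposited table called all 5 increased, so its level is not settled by these arrays.

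Members with known roles in neurons and development mostly stayed within 1.5-fold. Of 14 detected members in this list, 1 was at least 1.5-fold higher and none lower, and the median was 0.15. Zfp503 (Nolz1), a regulator of striatal development, read 1337.7 and 1530.3 units (0.19; -0.35 by its second probe set) and Zfp521, a cofactor in neural differentiation, 896.7 and 939.1 (0.07). Zfp292, whose human counterpart is a gene of intellectual disability, read 191.0 and 355.8 units (0.90), with its other 4 probe sets between 0.04 and 0.96. Zfp148, a Krüppel-type factor binding GC-rich promoters, read 846.2 and 1232.1 units (0.54), and all 5 other probe sets were higher, at 0.42 to 0.82. Zfp703, a transcriptional repressor, read 261.0 and 391.4 units (0.58), where the authors' deposited table gave -0.1. Zfp335, which neural progenitors need, read -0.15, and Zfp110 and Zfp369, interactors of the neurotrophin receptor p75, -0.18 (0.14 and 0.11 by its other probe sets) and -0.04 (present in wild type alone).

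Members acting on RNA, translation and protein turnover had a median of 0.00 over 11 detected genes, with 2 at least 1.5-fold higher. These were Zfp638 and Zfp326, a factor coupling transcription to splicing, at 553.8 and 855.6 units (0.63; 0.4 and unchanged in the authors' deposited table). Zfp36 (tristetraprolin), which drives decay of cytokine messages, read 146.6 and 154.4 units (0.07), and Zfp598, a sensor of collided ribosomes, 739.3 and 679.8 (-0.12). Members known in chromatin and transcription had a median of 0.09 over 15 detected genes, with 2 at least 1.5-fold higher, Zfp644 and Zfp445. Zfp451, a SUMO ligase, followed at 677.5 and 978.3 units (0.53), with 4 other probe sets at 0.04 to 0.76. Zfp809, which silences murine leukaemia virus through Trim28, read 434.6 and 585.2 units (0.43), and Zfp281, a regulator of pluripotency, 826.5 and 940.4 (0.19). In the same list Zfp219 read -0.27 and Zfp384 -0.19. The 3 lists were drawn up from known roles with earlier results of these data known. Their shares of higher members stand beside 28.4% of all members and 9.44% of all detected genes, but the lists were brighter. In the order given, their median mean log2 signals were 9.10, 10.04 and 9.42, against 8.06 for all members. From the dimmest to the brightest of the 4 signal groups, 46.8%, 16.2%, 16.3% and 9.09% of members were at least 1.5-fold higher. The lists were not compared with members of like signal.

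The partners through which KRAB proteins act showed no common direction in their ratios. Of 19 genes listed 16 were detected, with a median of 0.01, 8 above 0 and 8 below. At least 1.5-fold higher were 2 (12.5%, against 9.44% of all detected genes). Trim28 itself read 4803.0 units against 3773.3 in Drd2-/- (-0.35; second probe set -0.25), and the authors' deposited table called it decreased (-0.4). Setdb1 read 854.1 and 802.8 units (-0.09; second probe set 0.13), and the heterochromatin proteins Cbx5 and Cbx1 -0.01 and 0.33 (second probe set of Cbx1 -0.04). Cbx3, another heterochromatin protein, read 125.7 and 289.6 units (1.20; 0.6 in the authors' deposited table). Mphosph8, a subunit of the HUSH silencing complex, read 694.2 and 1123.0 units (0.69; second probe set 0.99), while Pphln1 of the same complex read -0.02. Smarcad1 gave 0.54 (second probe set 0.33) and Morc3 0.41 (second probe set 0.53). The authors' deposited table called 4 of the 16 increased, namely Cbx3, Mphosph8, Smarcad1 and Morc3, and 1 decreased, Trim28. Of all detected genes it called 8.66% increased and 5.55% decreased. Among like families of zinc finger genes, Zbtb genes had a median of 0.03 with 6 of 31 at least 1.5-fold higher (19.4%). Zscan and Zkscan genes had 0.12 with 3 of 16 (18.8%), and Klf genes -0.20 with 0 of 15. These shares stand beside 28.4% of the Zfp genes and 9.44% of all detected genes, but the families were brighter than the Zfp genes. Median mean log2 signals were 8.82 (Zbtb), 8.66 (Zscan and Zkscan) and 9.53 (Klf), against 8.06 for Zfp genes. From the dimmest to the brightest of the 4 signal groups, 46.8%, 16.2%, 16.3% and 9.09% of Zfp genes were at least 1.5-fold higher. The families were not compared with Zfp genes of like signal. No member of these small families was 1.5-fold lower, against 3.55% of all detected genes. Their differences from the Zfp genes were not tested.

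Agreement between probe sets was examined within the arrays. Of 106 members with at least 2 detected probe sets, the second brightest lay on the same side of 0 as the brightest in 77.4%, against 65.3% of 6008 other genes. For the 38 of these at least 1.5-fold higher, the second brightest was also higher in 36 (94.7%, against 87.4% of 494 other genes). It was at least 1.5-fold higher in 30 (78.9%, against 59.5% of the same 494). A probe set present on 1 array alone could not point away from that array, so part of this agreement was set by the rule. Among the 38, the second probe sets of Zfp788, Zfp995, Zfp942, Zfp60, Zfp595 and Zfp78 were present in Drd2-/- alone. A ratio set to 0 counted as the same side only beside another 0. No member at least 1.5-fold lower had a second detected probe set. By the type of sequence the probe set was designed on, medians were 0.19 over 81 members with a full-length message, 0.11 over 41 with another mRNA and 0.17 over 146 with an expressed sequence tag, against -0.11, -0.03 and -0.02 in other genes. Probe sets known to match other transcripts (suffix _x_at) measured 12 members with a median of 0.37, and plain probe sets (suffix _at) 234 with a median of 0.17.

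**Figure D5:**
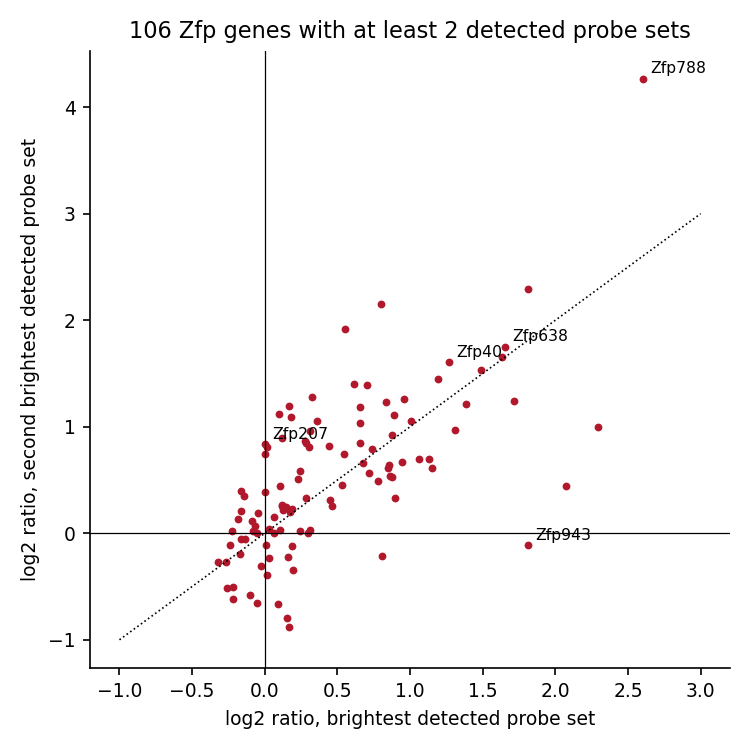
Log2 ratio of the second brightest detected probe set (y axis) against that of the brightest (x axis) for 106 Zfp genes, with a dotted line of equality. Most points share a side of 0, Zfp788 lies far up at 2.60 and 4.27 (a bound), and Zfp943 is split at 1.81 and -0.11. A probe set present on 1 array alone could not point away from that array.

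Promoter letters were compared with all RefSeq windows of the same length, 1 window for each of 27025 genes. The E-box CACGTG stood in 7.73% of member windows and 7.24% of all, and in 9 of 67 members at least 1.5-fold higher (13.4%) and 8 of 153 others (5.23%). The printed windows of Zfp942 and Zfp943 overlap and share 1 E-box, read from either strand, as do those of Zfp944 and Zfp758, so these 4 are not separate cases. CCAAT was found in 45.9% of member windows and 37.9% of all, with 53.7% among the higher members and 42.5% among the rest. The ETS motif CCGGAAGT stood in 11.4% of member windows against 4% of all and 5.29% of protein-coding genes, and in 14.9% of the higher members and 9.80% of the rest. Of 9 motifs searched, 4 stood in a larger share of the higher members than of the rest and 5 in a smaller share. The larger shares were those above and the cAMP response element below, at 2.99% against 1.96%. The smaller were 5.97% against 7.19% for the YY1 motif AAGATGGC, 19.4% against 25.5% for the GC box GGGCGGGG, 2.99% against 8.50% for TATAAA, 2.99% against 5.23% for the NRF1 motif and 1.49% against 4.58% for the Zfp143 motif. These shares were not tested. The cAMP response element TGACGTCA stood in 5 member windows (2.27%) and 1.88% of all. Each motif was searched on both strands, and a match describes letters only.

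Other features of the same arrays moved beside these values. The Drd2-/- array had a median signal of 132.6 units over all probe sets against 104.3 in wild type. Of 9 nuclear noncoding RNAs, chosen after their values were seen, 8 read higher in Drd2-/-, with Snhg14 at 1.81, Kcnq1ot1 at 1.67 and Malat1 at 1.39, and Rian read -0.57. The 3' to 5' control ratios were 1.41 and 1.40 for Actb, 0.787 and 0.752 for Gapdh, 2.50 and 3.24 for Pcx and 2.57 and 2.87 for Tfrc in wild type and Drd2-/-. Markers of striatal projection neurons were bright on both arrays (10 of 12 detected, median -0.06). Cortical excitatory neuron markers were lower in 7 of 10 detected of 12 listed, with a median of -0.55. Of the 10, 5 were at least 1.5-fold lower (50%) and 3 at least 2-fold lower (30%), against 3.55% and 0.848% of all detected genes. The summed signals of the 10 were 14506 and 14760 units, mostly from the bright Nrgn, Lamp5 and Mef2c. Nrgn, Lamp5 and Mef2c gave 0.08, 0.17 and 0.05. The dim Neurod6 gave -2.51, Tbr1 -2.12 (a bound) and Slc17a7 -1.62, and none of the 10 was at 0. Medians were -0.19 for astrocyte, -0.15 for microglia, -0.31 for oligodendrocyte and 0.01 for choroid plexus and ependymal markers. The summed signal of the 8 detected choroid plexus and ependymal markers of 10 listed was 4848 units (wild type) and 7163 units (Drd2-/-). Most of that sum was Ttr, which read 2985.2 and 5347.5 units (0.84; second probe set 1.06) and was called increased in the authors' deposited table. The part of these features in the Zfp ratios was not tested.

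At the edge of the detection rule, Zfp30 (287.9 and 340.8 units) and Zfp395 (81.7 and 66.6 units) entered with a lowest deposited detection p-value of 0.0461. Zfp429 (90.6 and 122.6 units), Zfp474 (49.2 and 58.0), Zfp341 (130.4 and 126.0) and Zfp618 (183.6 and 245.7) stayed outside at 0.0562. The 37 Zfp genes outside had median signals of 29.1 units (wild type) and 35.9 units (Drd2-/-).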

How the data were processed

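Each probe set has 1 linear intensity per array, which the authors scaled array by array before deposit, per the file headers. The mean trimmed by 2% at each end was 500.0 on both arrays. Detection p-values with letter calls were deposited too, as were a log2 ratio of the arrays with its limits and a change call, per the file headers. The change p-value compares probes, not animals, and is not printed. No source used here names the software. All 45101 probe sets had identical signals under opposite genotype names in the value table and the comparison table, so each call was given to the array with the matching signal.

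Symbols came from the platform annotation, and all 305 Zfp genes were found by Entrez number in RefSeq GRCm38.p6, used for chromosome, gene order and promoters. A gene was represented by its detected single-gene probe set of highest mean log2 signal (signals floored at 0.1). Where only 1 array had a present call, the ratio is a bound: the absent side was taken as its own signal or that array's lowest present signal (5.0 units in wild type, 5.9 in Drd2-/-), whichever was larger. A bound that then pointed away from the array with the call was set to 0. Zfp652, present in wild type alone at 154.7 units against 240.7 in Drd2-/-, was set to 0 in this way. With no bound, 78 members were at least 1.5-fold higher in place of 76. The number of arrays limits the precision. Planned counts of zinc fingers per protein were not made, as protein sequences were not used here. pandas 2.3.3 and statsmodels 0.14.6 were used, and the like-signal comparison was tested on simulated data.

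The members, the lists, the named-gene rule and the alternatives were all chosen with earlier results of these data known. The rule named the 8 highest and 8 lowest brighter members present on both arrays, 3 and 3 dimmer ones, 3 in each direction present on 1 array, the 6 brightest, the role lists, the KRAB partners and neighbouring pairs at least 1.5-fold apart. Other members named by cluster, the clusters, the 60-base windows and the motifs were chosen after values were seen.

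Alternatives were median centring, quantile normalization, lowess centring on signal, 32 units added, presence on both arrays, no detection filter, other choices of probe set, the authors' ratio, no bound and other bin numbers.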

Additional observations from a re-analysis of the deposited data

Results flagged for a closer look

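Probe sets paired with several genes were left out of every comparison above. Of 27 with a Zfp symbol among their genes, 15 were detected, and 4 of these were at least 1.5-fold higher in the Drd2-/- array. The share over all probe sets paired with several genes was not counted, so this count has no background of its own kind. The 4 were the probe set of Zfp960 and Zfp97 (57.7 units in wild type and 234.0 in Drd2-/-, log2 ratio 2.02), that of Gm3055 and Zfp781 (1.60), that of a family with Zfp965, Zfp966, Zfp967, Zfp971 and Zfp973 (0.71) and 1 of Zfp91 with Gm44505 and Cntf (0.59). The last was called unchanged in the authors' deposited table. In the other direction 1 probe set of Zfp706 and Gm10193 gave -2.34, but the authors' deposited table gave it 0, and the bright probe sets of that pair gave -0.28 to 0.15.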

How the results depend on the processing

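The median log2 ratio of the Zfp genes stayed above 0 in each alternative run, between 0.0316 and 0.22. It was lowest under quantile normalization, at 0.0316, where the other genes had a median of -0.10. The distance from genes of like signal lay between 0.20 and 0.27 throughout, bin numbers of 10 and 40 included. The count of members at least 1.5-fold higher lay between 56 and 92 under the other alternatives, and was 43 without chromosomes 13 and 17, an alternative added after the data were seen that has fewer members. The count of 3 lower members is small and moved to 8 under quantile normalization, 1 with 32 units added, 11 with no detection filter and 5 without _x_at and _s_at probe sets. Of 36 named members at least 1.5-fold apart, 27 stayed so in the same direction under every alternative that kept them, none changed sign, and Zfp53, Zfp81, Zfp108, Zfp229, Zfp326, Zfp763, Zfp867, Zfp944 and Zfp982 came within 1.5-fold under at least 1. No replicate could be left out. No paired analysis was possible because each genotype has 1 array. Signals near background limit the dim members most.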
